A study of Homo sapiens with 11 samples.

Results

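The genes described here make, modify or consume NAD in the human triple negative breast cancer line MDA-MB231, an established line of mesenchymal character. They are 10 genes chosen by name: NAMPT, NAPRT, NMNAT1, NMNAT2, NMNAT3, NADSYN1, NNMT, SIRT1, SIRT2 and SIRT6. Of these, 9 had a row among the 23167 Ensembl gene identifiers of the count tables, and NAPRT was not analysed here at the RNA level. Enough reads for a test were found for 7 of them, among 10963 genes tested. RNA-seq compared WT cells, given transfection reagent with no siRNA, with mH2A1.1 KD cells, given siRNA against the mH2A1.1 isoform at 11 nM, both for 3 days, with 2 libraries in each group. The lack of a control siRNA means that a response to mH2A1.1 loss and to siRNA itself cannot be told apart. ChIP-seq of untreated cells gave 1 peak list for mH2A1.1 and 1 for total mH2A1.

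NAD carries electrons in metabolism and is also consumed as a substrate, so cells must keep remaking it. NAMPT starts the salvage of nicotinamide, NAPRT starts the route from nicotinic acid, the NMNAT enzymes join the mononucleotide to adenylate, and NADSYN1 amidates the nicotinic acid form to give NAD. NNMT methylates nicotinamide and so withdraws it from salvage, and sirtuins such as SIRT1, SIRT2 and SIRT6 spend NAD to remove acyl groups from proteins. The macrodomain of mH2A1.1, a histone H2A variant, binds ADP-ribose compounds, which are themselves products of NAD consumption, whereas that of the mH2A1.2 isoform does not.

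The libraries were uneven. Counts on genes summed to between 7856892 and 9794674 in WT, to 5584962 in KD replicate 1 and to 2309549 in KD replicate 2, which set the limit of detection at between 0.316 and 1.42 CPM (counts scaled to the library total) for a gene with 3 counts. KD replicate 2 held only 30 counts on the 1722 genes of chromosomes 21, 22 and X, so these genes were left out of the fit. No member lies on these chromosomes. Markers of a mesenchymal breast cancer cell (VIM, CD44, AXL, CAV1 and MSN) summed to 7460 and 7650 CPM in WT and to 8360 and 9570 CPM in KD, and without MSN, which lies on chromosome X, to 6360 and 6510 CPM in WT and 7080 and 9570 CPM in KD. Both KD sums were above both WT sums either way, but the genes differed. CAV1 overlapped between the groups, at 999 and 948 CPM in WT and 941 and 1150 CPM in KD. CD44 was nearly level, at 1330 and 1320 CPM in WT and 1330 and 1410 CPM in KD. AXL had 1720 and 1730 CPM in WT and 1830 and 2280 CPM in KD. VIM, an intermediate filament gene of mesenchymal cells, had 2310 and 2510 CPM in WT and 2980 and 4730 CPM in KD, and the part of these markers in the results was not tested. The 7 luminal markers summed to between 45.3 and 54.4 CPM, with ESR1 and PGR listed at 0. The 2 fibroblast markers summed to at most 19.5 CPM in WT and to 26.8 and 44.4 CPM in KD. Of these, COL1A1 had 9.68 and 8.68 CPM in WT and 18.3 and 33.1 CPM in KD. PDGFRB overlapped between the groups, at 9.78 and 10.3 CPM in WT and 8.5 and 11.3 CPM in KD. The part of the fibroblast markers in the results was not tested. In bulk RNA, fewer cells of a type and less RNA per cell cannot be told apart. The labels do not say that replicates came from separate cultures, so the p-values measure the spread between libraries, which may be technical.

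Promoters of 4 members are shown because they cover the range of mH2A1.1 occupancy among the members: SIRT6 and NADSYN1 lay in mH2A1.1 peaks shared with the total mH2A1 list, NMNAT2 in an mH2A1.1 peak with no mH2A1 partner, and SIRT1 in none. Sequences are from RefSeq (GRCh38.p14), which held a window for 8 members, and are written 5′ to 3′ on the strand of the gene. NADSYN1 (chr11:71452953-71453202, plus strand), NMNAT2 (chr1:183418381-183418630, minus strand) and SIRT1 (chr10:67884406-67884655, plus strand) are given as the 250 bases before the RefSeq start, and SIRT6 (chr19:4182566-4182688, minus strand) as 123 of these bases. Capitals mark matches on either strand to 6 motifs, and neighbouring matches run together. The E-box was searched as CACGTG and the GC box as GGGCGG. The CCAAT box was searched as its own letters, and the TATA box as TATAAA. The core of the NRF1 motif was searched as GCGCATGC and that of the ETS motif as ACTTCCGG.
NADSYN1: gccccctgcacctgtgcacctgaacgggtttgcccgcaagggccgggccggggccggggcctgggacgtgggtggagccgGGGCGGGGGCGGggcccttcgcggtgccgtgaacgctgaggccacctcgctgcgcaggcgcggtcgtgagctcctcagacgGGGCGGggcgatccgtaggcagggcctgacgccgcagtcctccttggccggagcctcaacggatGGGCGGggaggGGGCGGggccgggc
NMNAT2: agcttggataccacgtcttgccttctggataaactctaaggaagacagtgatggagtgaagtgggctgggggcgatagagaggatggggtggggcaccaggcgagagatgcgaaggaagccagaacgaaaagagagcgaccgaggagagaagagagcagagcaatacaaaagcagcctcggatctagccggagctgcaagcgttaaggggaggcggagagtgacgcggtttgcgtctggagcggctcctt
SIRT1: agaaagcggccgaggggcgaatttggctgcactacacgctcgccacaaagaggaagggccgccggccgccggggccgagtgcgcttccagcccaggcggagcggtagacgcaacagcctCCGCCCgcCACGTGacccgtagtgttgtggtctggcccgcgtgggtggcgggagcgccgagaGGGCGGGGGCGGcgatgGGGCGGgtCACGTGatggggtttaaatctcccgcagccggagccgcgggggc
SIRT6: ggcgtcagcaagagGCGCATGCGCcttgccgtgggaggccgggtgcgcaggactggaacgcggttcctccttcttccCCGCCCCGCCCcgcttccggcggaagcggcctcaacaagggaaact

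The SIRT1 promoter held 2 E-boxes, a motif found in 6.34% of the 35116 RefSeq windows of the same length, together with 4 GC boxes. The SIRT6 window held 2 overlapping matches to the NRF1 core, 1 on each strand, a motif in 2.63% of windows. GC boxes, present in 42.6% of windows, numbered 5 in NADSYN1, 4 in SIRT6, 3 each in NAMPT and NMNAT3 and 1 in NMNAT1. These counts are over the full windows, and some GC boxes of SIRT6 and its 1 CCAAT box lie in bases not shown. None of the 6 motifs matched in NMNAT2, whose window had a GC content of 56.8%, below the median of 58.0% over all windows. The windows of NADSYN1 and NAMPT reached 77.6% and 77.2%. The RefSeq start of NAMPT lay 983 bp from the GENCODE start used for peaks, so its window lay inside the gene as annotated there. These starts differed by 244 bp for SIRT2, 94 bp for NADSYN1 and at most 47 bp for the other windows. NMNAT1 held 1 ETS core, a motif in 3.42% of windows, and 1 CCAAT box. No member window held a TATA box, a motif in 10.7%. A match is a string of letters and not a measured binding site.

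Per kilobase of exon, NAMPT was the most abundant member in WT cells, at 32.2 ± 2.27 RPKM (reads per kilobase of exon, scaled to the library total, mean ± SD, n = 2). SIRT1 followed at 12.2 ± 1.85 RPKM, NNMT at 9.54 ± 0.888 and SIRT6 at 6.08 ± 0.535. NADSYN1 at 3.01 ± 0.0915 RPKM and NMNAT2 at 2.94 ± 0.0615 overlapped between libraries, and NMNAT1 stood just below them at 2.5 ± 0.178. NMNAT3 was near the limit of detection at 0.0709 ± 0.0143 RPKM. The order among the middle genes depended on the transcript model. With the length of the longest coding transcript in place of all exons, NAMPT was still first at 159 RPKM in WT, but NADSYN1 came second at 18.3, ahead of SIRT1 at 13.5, NNMT at 12.3 and SIRT6 at 10.4. In KD cells the order by exon length was NAMPT at 18.2 ± 5.27 RPKM, NNMT at 12.6 ± 2.04, SIRT6 at 11.1 ± 4.5 and SIRT1 at 6.95 ± 1.18, and the libraries of NNMT and SIRT6 overlapped.

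**Figure D1:**
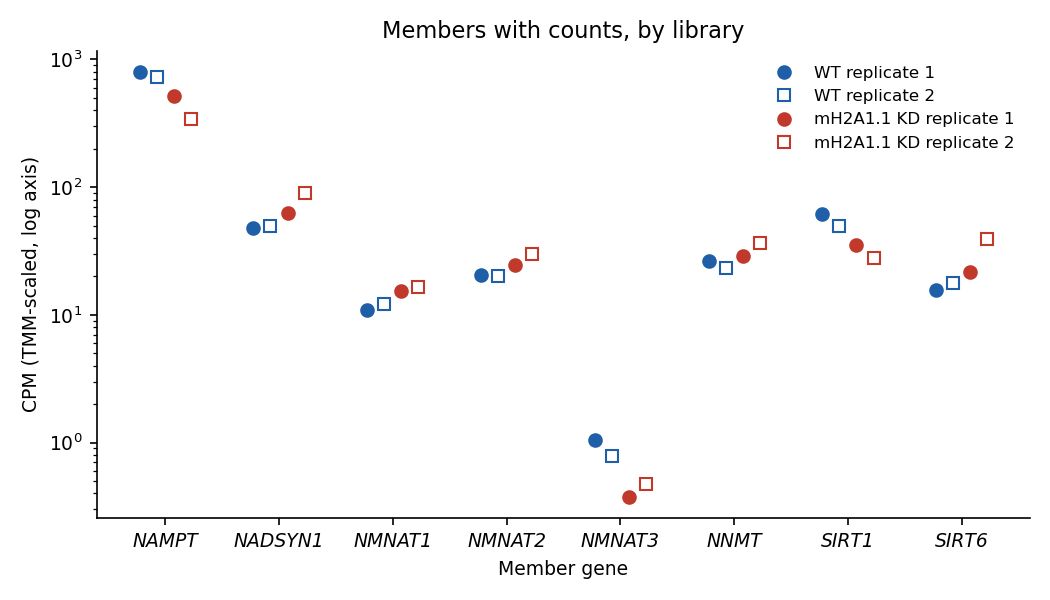
Expression of the 8 members with counts, in CPM on a log axis, with 1 point for each library (blue, WT; red, mH2A1.1 KD; filled circles, replicate 1; open squares, replicate 2). NAMPT lies highest in every library, and its KD points at 517 and 342 CPM lie below its WT points at 798 and 723 CPM.

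NAMPT (ENSG00000105835, chr7:106248298-106285966, minus strand; GRCh38, as for all positions), the rate-limiting enzyme of nicotinamide salvage, had 798 and 723 CPM in WT and 517 and 342 CPM in KD. Its KD libraries both lay under the WT libraries, and the KD libraries differed from each other more than the WT libraries did. The log2 fold change of KD against WT was -0.82 (SE 0.237), and it did not pass the test with edgeR (adjusted p = 0.194), where a call was made below an adjusted p of 0.1 if the fold change also exceeded 1.5. DESeq2, the tool of the study, called NAMPT lower (log2 fold change -0.83, adjusted p = 0.037). NAMPT exons had a GC content of 36.9%, in the lowest of 5 equal GC classes of the genes tested, whose median log2 fold change was -0.467. With offsets that removed each library's trend on exon GC content and length, the log2 fold change of NAMPT was -0.33 (SE 0.104, edgeR adjusted p = 0.105). In DESeq2 with the same offsets NAMPT was at -0.41 (DESeq2 adjusted p = 0.0464), under the fold change limit. Some 12.5% of the 32-base words of its exons occur elsewhere in the primary genome, and the part of such reads in its counts was not tested. Leaving out a KD library gave -0.55 without replicate 2 (edgeR adjusted p = 5.93e-07, under the fold change limit) and -1.16 without replicate 1 (adjusted p = 3.39e-23). These fits, here and for the genes that follow, take their spread from the close WT pair and assume that the lone KD library varies like it. Leaving out a WT library instead, with the wider spread of the KD pair, gave -0.75 (adjusted p = 0.98) and -0.90 (adjusted p = 0.743).

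SIRT1 (ENSG00000096717, chr10:67884656-67918390, plus strand), a nuclear deacetylase of histones and transcription factors, had 61.5 and 49.6 CPM in WT and 35.5 and 27.9 CPM in KD. The groups did not overlap. Its log2 fold change was -0.79 (SE 0.223, edgeR adjusted p = 0.194), not past the threshold, while DESeq2 called it lower at -0.81 (adjusted p = 0.0833). At an exon GC content of 41.8%, SIRT1 lay in the second GC class, whose median was -0.215. With the offsets its log2 fold change was -0.51 (SE 0.139, edgeR adjusted p = 0.0812), which passed the limit on the adjusted p but not that on the fold change. In DESeq2 with the same offsets it was -0.56 (DESeq2 adjusted p = 0.116), past neither limit. SIRT1 was called by edgeR when either KD library was left out, at -1.01 without replicate 1 (adjusted p = 2.77e-06) and -0.65 without replicate 2 (adjusted p = 0.000218), with the spread of the WT pair. It was not called when either WT library was left out, at -0.64 (adjusted p = 0.98) and -0.95 (adjusted p = 0.708).

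SIRT6 (ENSG00000077463, chr19:4174109-4182566, minus strand), a chromatin-bound deacylase with roles in DNA repair and glycolytic gene control, had 15.7 and 17.8 CPM in WT and 21.7 and 39.2 CPM in KD. KD replicate 2 stood well above the other libraries. The log2 fold change was 0.81 (SE 0.306, edgeR adjusted p = 0.199) and did not pass the test, also not with DESeq2 (0.82, adjusted p = 0.143). SIRT6 had the most GC-rich exons of the members tested, at 63.6%, in the highest GC class, whose median log2 fold change was 0.467. With the offsets the value was 0.30 (SE 0.152, edgeR adjusted p = 0.255). Without KD replicate 2 it was 0.39 (edgeR adjusted p = 0.148), and without KD replicate 1 it was 1.23 (adjusted p = 1.57e-07), both with the spread of the WT pair. Without a WT library it was 0.75 (adjusted p = 0.98) and 0.92 (adjusted p = 0.751).

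NADSYN1 (ENSG00000172890, chr11:71453109-71524107, plus strand), the last enzyme of the nicotinic acid and de novo routes, had 47.9 and 50.0 CPM in WT and 63.3 and 90.7 CPM in KD. The WT libraries agreed closely and both KD libraries were higher. The log2 fold change was 0.64 (SE 0.224, edgeR adjusted p = 0.194) and did not pass the test. Its exon GC content of 53.9% placed it in the fourth GC class, with a median of 0.287. With the offsets the log2 fold change of NADSYN1 was 0.29 (SE 0.109, edgeR adjusted p = 0.15), and without KD replicate 2 it was 0.38 (adjusted p = 0.0267), under the fold change limit. Without KD replicate 1 it was called, at 0.88 (edgeR adjusted p = 3.64e-08), again with the spread of the WT pair, but not without either WT library, at 0.61 (adjusted p = 0.98) and 0.67 (adjusted p = 0.779).

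The NMNAT enzymes carry out the same adenylyl transfer in different compartments of the cell. NMNAT1 (ENSG00000173614, chr1:9943428-9985501, plus strand), the nuclear enzyme, had 10.9 and 12.1 CPM in WT and 15.5 and 16.5 CPM in KD, with a log2 fold change of 0.47 (SE 0.225, edgeR adjusted p = 0.246). NMNAT2 (ENSG00000157064, chr1:183248237-183418380, minus strand), the Golgi and cytosolic enzyme best known from axons, had 20.7 and 20.1 CPM in WT and 24.7 and 29.8 CPM in KD, a log2 fold change of 0.40 (SE 0.21, edgeR adjusted p = 0.275). Neither passed the test, although their KD libraries were above their WT libraries. Leaving out KD replicate 1 gave 0.52 for NMNAT1 and 0.53 for NMNAT2, and leaving out KD replicate 2 gave 0.44 and 0.28. Their exon GC contents, 46.9% and 48.7%, lay in the middle GC class, whose median log2 fold change was 0.0213, and the offsets moved them little, to 0.48 for NMNAT1 and 0.31 for NMNAT2. Some 33.7% of NMNAT1 exon words occur elsewhere in the primary genome. NMNAT3 (ENSG00000163864, chr3:139560180-139678017, minus strand), the mitochondrial enzyme, had 10 and 6 counts in WT and 2 and 1 counts in KD. Its KD counts lay at or under the floor of 3 counts, so no fold is given, and 44.5% of its exon words are repeated in the primary genome. It shares 264 exon bases with COPB2-DT on the opposite strand, whose reads cannot be told apart there if counting ignored strand.

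NNMT (ENSG00000166741, chr11:114257787-114313536, plus strand), which consumes nicotinamide and the methyl donor S-adenosylmethionine, had 26.4 and 23.1 CPM in WT and 28.9 and 36.4 CPM in KD. The gap between the nearest WT and KD libraries was smaller than the gap within either group. The log2 fold change was 0.38 (SE 0.217, edgeR adjusted p = 0.305), and 0.26 (SE 0.156, edgeR adjusted p = 0.328) with the offsets. It did not pass the test in either fit. The log2 fold change of NNMT was 0.22 without KD replicate 2 and 0.54 without KD replicate 1.

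SIRT2 (ENSG00000068903, chr19:38878555-38899862, minus strand), a mainly cytoplasmic deacetylase, was listed at 0 in all 4 libraries. It sits on chromosome 19 in a run of 12 neighbouring genes, from LGALS7 to FBXO17 (chr19:38770968-38975742, GRCh38), that were all listed at 0 in all libraries. The run includes genes used by most cells, such as HNRNPL, SARS2 and MRPS12, so the 0 is given as listed and not as absence of SIRT2 RNA. The cause of the run was not tested.

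Across the members tested, 0 of 7 were called by edgeR, against 0% of all genes tested. An unadjusted p under 0.05 was found for 4 of the 7 members and for 2540 of the 10963 genes, and the smallest adjusted p of any gene was 0.176. DESeq2 called 2 members lower, NAMPT and SIRT1, of 6 with an adjusted p, against 5.73% of all genes with one. The edgeR fit with GC and length offsets called 0 of 7 members, against 5.36% of genes. The 2 KD libraries lay under the 2 WT libraries for 2 of 7 members, against 32.4% of genes tested, and over them for 5 of 7, against 32.5%. The median log2 fold change of the 7 members was 0.40, and 0.01 over all genes. With 2 libraries in each group, an exact permutation test of a single gene cannot give a two-sided p below 0.333.

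**Figure D2:**
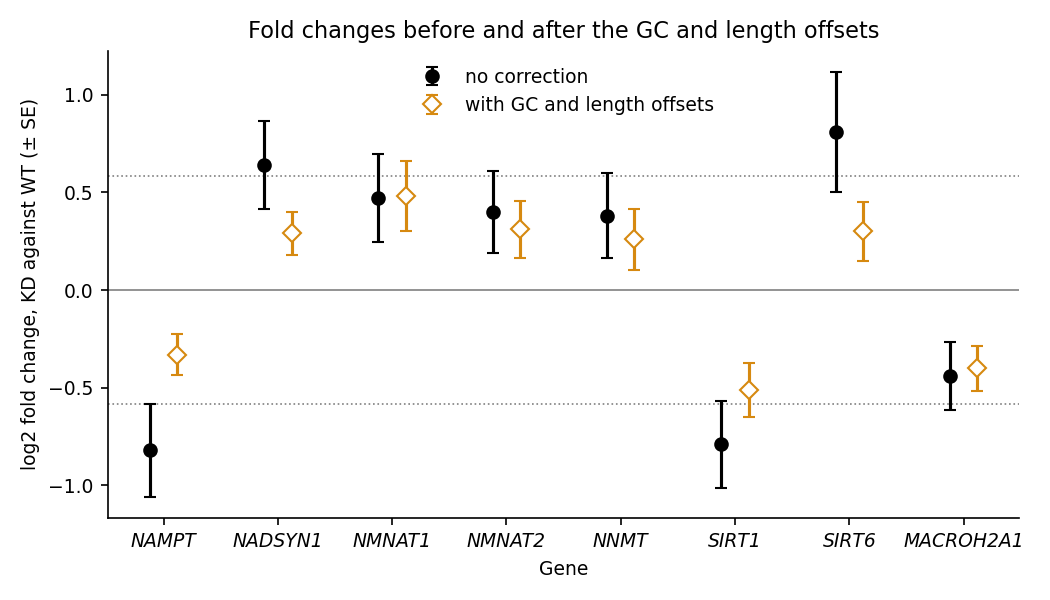
Log2 fold change of KD against WT with its SE for the 7 members tested and MACROH2A1, without a correction (filled circles) and with the GC and length offsets (open diamonds). Dotted lines mark a fold change of 1.5 in either direction, and the offsets bring NAMPT from -0.82 to -0.33 and SIRT6 from 0.81 to 0.30 while NMNAT1 stays near 0.47.

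The 2 members with a log2 fold change below 0, NAMPT and SIRT1, were also the 2 with the lowest exon GC content, 36.9% and 41.8%. The 5 members above 0 ranged from 46.9% to 63.6%. Over all genes tested, the median log2 fold change went from -0.467 in the class with the lowest exon GC content to 0.467 in the highest. Each of the 7 members lay farther from 0 than the median of its class, but the share of all genes that did so was not counted. For NMNAT1, NMNAT2 and NNMT, in the middle class, that median was only 0.0213, so the comparison says little about the members. The part of GC content in the members' values was not tested beyond the offsets.

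**Figure D3:**
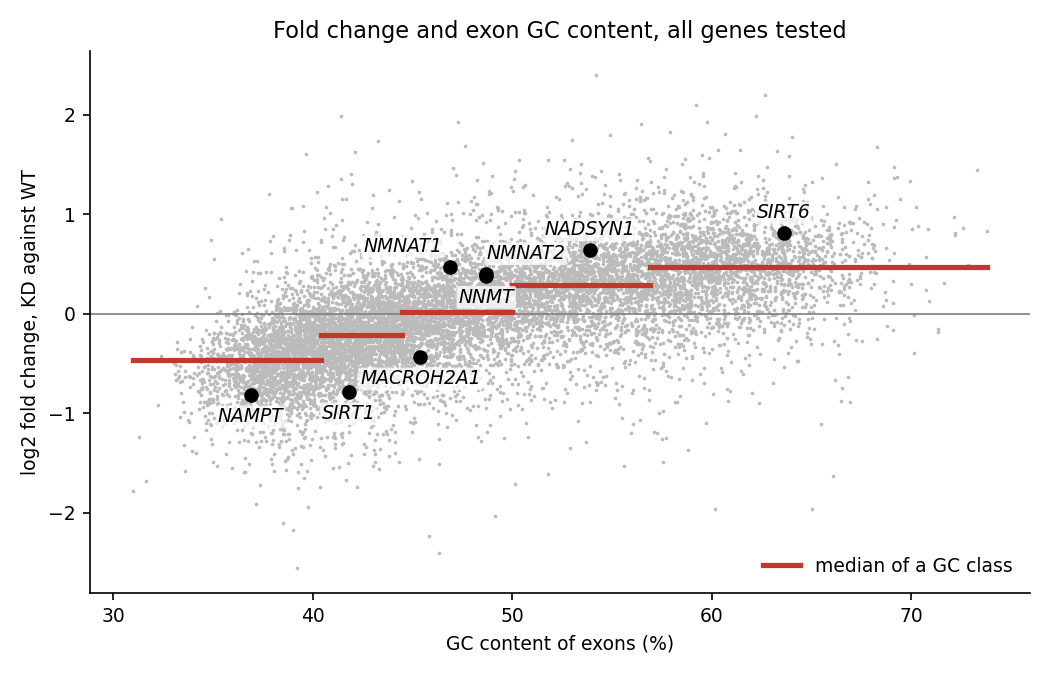
Log2 fold change of KD against WT by exon GC content for the genes tested (grey points), with the median of each of 5 equal GC classes as a red line over its GC range, and the members and MACROH2A1 as black points. The medians climb from -0.467 to 0.467, and NAMPT and SIRT1 lie at the low end of the GC range while SIRT6 lies at the high end.

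MACROH2A1, the gene whose mH2A1.1 isoform the siRNA targets, had 385 and 394 CPM in WT and 274 and 300 CPM in KD. Its log2 fold change was -0.44 (SE 0.173, edgeR adjusted p = 0.205). The count is over all isoforms of the gene, so it does not measure the depletion of mH2A1.1 alone. With the offsets the value was -0.40 (edgeR adjusted p = 0.0901), close to that without them.

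The peak lists were given in whole bins of 3000 bp, from 1 library each, with no usable score. An mH2A1.1 peak lay within 500 bp of the transcription start site (TSS) of 5 of the 10 members, against 37.8% of the annotated genes of the count tables. NAPRT and SIRT2 are counted here as without a peak, although the lack of one could not be read at either gene. Among the 7 members tested the number was also 5, against 46.9% of genes tested. A common peak, one that shares at least 1 bp with an mH2A1 peak, lay at the TSS of 3 members, against 23.8% of annotated genes and 26.2% of genes tested. An mH2A1 peak lay at the TSS of 2 members, NADSYN1 and SIRT6, against 21.2% and 18.4%.

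SIRT6 lay wholly inside an mH2A1.1 domain of 126000 bp (chr19:4122001-4248000), which also held the starts of CREB3L3, ANKRD24, EBI3, YJU2 and MAP2K2. The domain was common, and a separate mH2A1 bin (chr19:4182001-4185000) covered the SIRT6 TSS. Among genes tested, 9.81% were covered over their whole length. At NADSYN1, which 4 mH2A1.1 peaks covered over 36.6% of its length, the peak at the TSS (chr11:71451001-71457000) was common and also held the start of DHCR7, the last enzyme of cholesterol synthesis. NNMT had 4 mH2A1.1 peaks over 35.4% of its length. Its TSS peak (chr11:114255001-114267000) counted as common, but the mH2A1 bin inside it began 3214 bp downstream of the TSS.

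NAMPT had a single mH2A1.1 bin, over its TSS (chr7:106284001-106287000), that covered 5.22% of the gene, and its nearest mH2A1 peak lay 37035 bp upstream. NMNAT2 had a TSS peak of 12000 bp (chr1:183408001-183420000) and 4 more bins inside the gene, of which 1 was common, with 13.2% of the gene covered. Neither TSS peak shared a base with an mH2A1 peak. For comparison, mH2A1.1 peaks covered a mean of 24.3% and a median of 8.29% of the length of genes tested.

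SIRT1 had no peak within 500 bp of its TSS. An mH2A1.1 domain of 18000 bp ended 3656 bp upstream (chr10:67863001-67881000), the adjoining mH2A1 bin ended 656 bp upstream, and 1 mH2A1.1 bin lay inside the gene. NMNAT1 had its nearest mH2A1.1 peak 4428 bp upstream and a peak of 15000 bp over its 3′ part (chr1:9978001-9993000), which reached another protein-coding start of the gene. NMNAT3 had no mH2A1.1 peak in the gene and 1 mH2A1 bin. NAPRT had no peak in the gene, the nearest mH2A1.1 peak lying 37352 bp upstream, but all 32-base words of its exons also occur on an alternate scaffold of the genome used here, so the lack of a peak there cannot be read. At SIRT2 there was no mH2A1.1 peak, and none lay anywhere in its run of genes listed at 0. The run was overlapped by 1 mH2A1 peak, and the mH2A1 peak nearest to the SIRT2 TSS lay outside it, 112139 bp upstream. Of the 32-base words of SIRT2 exons, 8.91% occur elsewhere in the primary genome and 5.4% on alternate scaffolds. Whether ChIP-seq reads could be placed at SIRT2 was not tested beyond these exon words, so the lack of a peak there cannot be read.

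Set beside the RNA values, the 3 members with a common peak at the TSS had log2 fold changes of 0.64 for NADSYN1, 0.38 for NNMT and 0.81 for SIRT6. The 2 members with an mH2A1.1 peak that was not common had -0.82 for NAMPT and 0.40 for NMNAT2. Those with no peak at the TSS had 0.47 for NMNAT1 and -0.79 for SIRT1. Among all genes tested, the median was 0.28 for the 2871 genes with a common peak at the TSS, -0.03 for the 2266 with another mH2A1.1 peak and -0.12 for the 5806 with none. The median exon GC content of these groups was 56.1%, 46.1% and 43.9%, and with the offsets all 3 medians were 0.01. None of the members' fold changes passed the edgeR test, so no relation to the peaks was tested.

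Of 36 further genes of NAD metabolism in 5 lists, 23 could be tested, and edgeR called 0 of them, against 0% of all genes, with an unadjusted p under 0.05 for 8, against 2540 of the 10963 genes. DESeq2 called 3 lower, NADK2, NNT and NT5E, of 15 with an adjusted p, against 5.73% of all genes with one. The edgeR fit with offsets called 2 of 23, NADK2 lower and NMRK1 higher, against 5.36% of genes. The median log2 fold change over the 23 genes was 0.06, and 0.01 over all genes tested.

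Among genes of NAD phosphorylation, transport and transhydrogenation, 0 of the 5 tested were called by edgeR. NADK2, the mitochondrial NAD kinase, had 52.6 and 46.2 CPM in WT and 24.4 and 16.5 CPM in KD. Both KD libraries were far below WT, and the log2 fold change of -1.23 (SE 0.242, edgeR adjusted p = 0.176) was lower than that of all but 1.09% of genes tested. With the offsets the log2 fold change of NADK2 was -0.91 (SE 0.135), which passed the test (edgeR adjusted p = 0.0225), and DESeq2 called it at -1.25 (adjusted p = 0.00905). NNT, the mitochondrial transhydrogenase, had 183 and 173 CPM in WT and 108 and 95.0 CPM in KD. Its log2 fold change was -0.81 (SE 0.179, edgeR adjusted p = 0.191), called by DESeq2 (-0.82, adjusted p = 0.0279), and -0.37 with the offsets (edgeR adjusted p = 0.106).

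Breakdown genes were led in level by NT5E, the surface nucleotidase CD73, at 135 ± 1.34 RPKM in WT and 84.4 ± 12.7 RPKM in KD. Its log2 fold change was -0.68 (SE 0.189, edgeR adjusted p = 0.194), DESeq2 called it lower (-0.69, adjusted p = 0.0564), and with the offsets it was -0.54 (edgeR adjusted p = 0.0415), under the fold change limit. NUDT13, a mitochondrial NADH pyrophosphatase, had 24 and 26 counts in WT and 10 and 3 counts in KD, with a log2 fold change of -0.75 (edgeR adjusted p = 0.299). CD38 and BST1, the classical NAD glycohydrolases, had at most 8 counts in any library and were not tested. In this list 2 of the 6 genes tested had a log2 fold change above 0, 4 below 0, and none was called by edgeR.

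NMRK1, the nicotinamide riboside kinase, had 2.74 and 3.16 CPM in WT and 5.86 and 4.25 CPM in KD, with 9 counts in KD replicate 2. Its log2 fold change was 0.85 (SE 0.329, edgeR adjusted p = 0.203), 1.13 (SE 0.298, edgeR adjusted p = 0.076) with the offsets 0.53 without KD replicate 1 (adjusted p = 0.485) and 1.00 without KD replicate 2 (adjusted p = 0.0517). In the list of NAD synthesis from other precursors, 10 of 11 genes had a row in the count tables. QPRT, NMRK2, ACMSD and IDO2 were listed at 0, and KMO, HAAO and IDO1 had at most 2 counts in a library. Of the list 3 genes were tested, and edgeR called 0 of them without the offsets and NMRK1 with them. Among the other sirtuins, SIRT7, a nucleolar deacylase, had 23.8 and 26.6 CPM in WT and 33.1 and 48.7 CPM in KD, a log2 fold change of 0.67 (SE 0.245, edgeR adjusted p = 0.196), and 0.28 with the offsets. Without KD replicate 2 it was 0.40 (adjusted p = 0.0693), and without KD replicate 1 it was called at 0.95 (adjusted p = 6e-06). SIRT3, the main mitochondrial deacetylase, had 0.03 (SE 0.232), SIRT5 0.39 (SE 0.278), and SIRT4 had at most 5 counts in a library.

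Of the methyl donor and methylnicotinamide genes around NNMT, edgeR called 0 of the 6 tested, and their median log2 fold change was 0.03. MAT2A, which makes S-adenosylmethionine, had 64.3 and 59.7 RPKM in WT and 66.9 and 63.9 RPKM in KD, and its groups overlapped (log2 fold change 0.08, SE 0.172, edgeR adjusted p = 0.79). AHCY, which hydrolyses S-adenosylhomocysteine, had 138 and 150 CPM in WT and 154 and 249 CPM in KD, with a log2 fold change of 0.48 (SE 0.253, edgeR adjusted p = 0.277), and KD replicate 2 stood far above the rest. Without KD replicate 2 the value of AHCY was 0.10 (adjusted p = 0.548), and without KD replicate 1 it was 0.78 (adjusted p = 2.39e-10). MTR, the methionine synthase, had 127 and 127 CPM in WT and 101 and 81.8 CPM in KD, with a log2 fold change of -0.46 (SE 0.188, edgeR adjusted p = 0.21), the 1 gene of this list with an unadjusted p under 0.05. MTAP, the methylthioadenosine phosphorylase, was listed at 0 in all libraries.

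**Figure D4:**
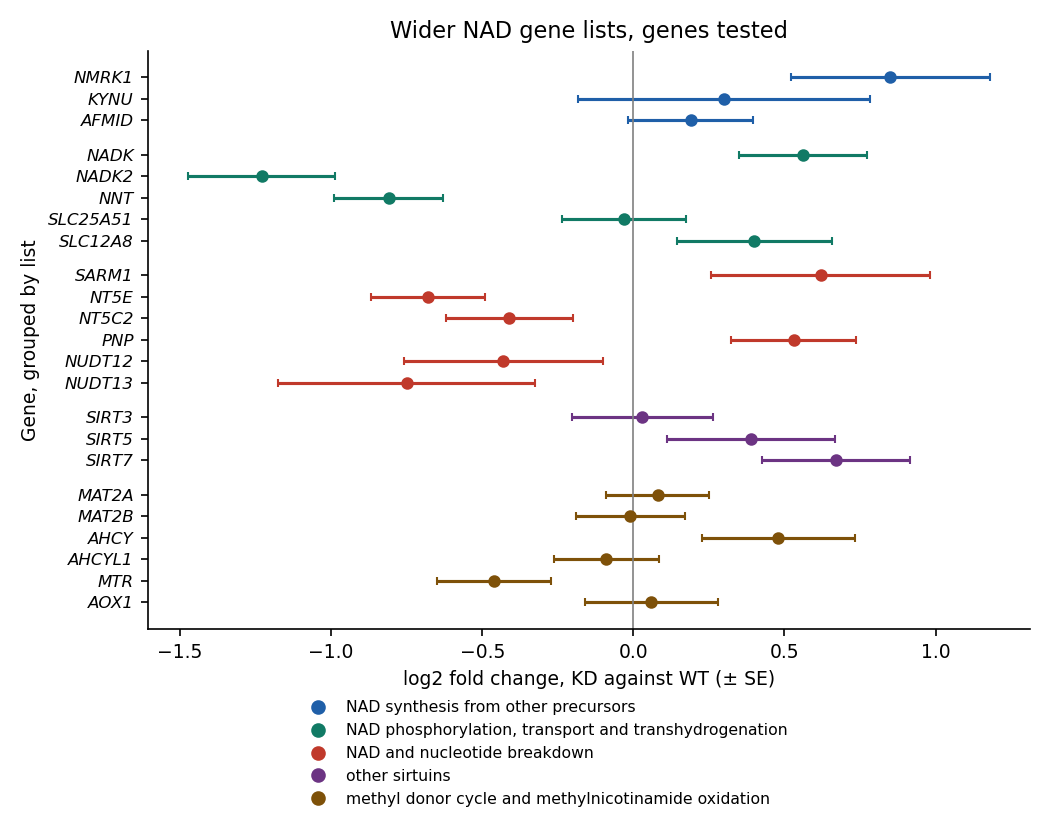
Log2 fold change of KD against WT with its SE from edgeR for the 23 genes tested of 5 further NAD gene lists, coloured by list. NADK2 at -1.23 lies farthest below 0, NMRK1 at 0.85 farthest above, and MAT2A, MAT2B, AHCYL1 and AOX1 lie near 0.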

How the data were processed

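RNA-seq counts per gene of 2 WT and 2 mH2A1.1 KD libraries and peak lists from 1 mH2A1.1 and 1 mH2A1 ChIP-seq library were used. The ChIP-seq input and promoter capture Hi-C samples were not used here. The members and gene lists were chosen with earlier results of these data known.

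The authors aligned reads to GRCh38 with STAR 2.5.1, removed reads under mapping quality 10 and duplicates, and counted reads per gene with htseq-count at default parameters. The deposited counts carry no normalization. Removing duplicates can lower densely covered genes such as NAMPT, and the kit was stranded, while the strand setting is not given beyond the default. The deposited peak positions come from normR calls against input, and the deposited score is 0 in every row. No column with per-sample values was left unused.

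Differential expression used edgeR 4.0.16 under R 4.3.3 (TMM factors, filterByExpr, quasi-likelihood test, Benjamini-Hochberg adjustment), and SE was taken from the F statistic. Genes of chromosomes 21, 22 and X were left out. Calls were made below an adjusted p of 0.1 when the fold change also exceeded 1.5, the limits of the study. DESeq2 1.42.0, other normalizations and filters, offsets from lowess trends on exon GC content and length (span 0.3), the replicate number as a block, and leaving out each library were alternatives. DESeq2 on the whole table was added after the data were seen. The tests were tested on simulated data with 200 changed genes. CPM and floors used TMM-scaled totals of the genes tested, and RPKM the summed exon length of GENCODE release 44, which matched 23061 of 23167 identifiers. Floors of 3 counts cover counting error only. Peaks were placed with the same annotation, in Python 3.11.15.

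Genes named are all members, MACROH2A1, the genes of the wider lists that were called, the 3 with the highest mean RPKM and the 6 with the largest log2 fold change, and neighbours whose start lies in a member's peak. SIRT3, SIRT4, SIRT5, MTR, MTAP and the other genes near 0 counts fall outside it, and their values were known when they were added.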

Additional observations from a re-analysis of the deposited data

How the results depend on the processing

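The 7 members tested kept the sign of their log2 fold change in all 105 values from 15 alternatives. For each of them both KD libraries lay on one side of both WT libraries. Most alternatives, such as leaving out a library, could therefore hardly reverse a sign. Of the 105 values, 17 passed the threshold for a call. DESeq2 called 874 genes in all, 2 members and 3 genes of the wider lists. With no filter on low counts the numbers were 2139, 4 and 4. The GC and length offsets gave 588 genes, 0 members and 2 genes of the wider lists in edgeR, and 405, 0 and 1 in DESeq2. DESeq2 on the whole table, added after the data were seen, gave 945, 2 and 3. Leaving out each library in turn gave between 2 and 4744 genes, between 0 and 4 members and between 0 and 12 genes of the wider lists, the highest numbers being those without KD replicate 1, where the lone KD library was assumed to vary like WT. The whole table, RLE and upper-quartile factors and a minimum of 10 counts in every library gave 0 calls in edgeR. Other causes of these differences were not tested.

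NAMPT passed with DESeq2 at -0.83 (also -0.83 on the whole table) and without a count filter at -0.84, and ranged from -1.16 to -0.55 with single libraries left out. SIRT1 passed at -0.81 with DESeq2 and without a count filter and at -0.80 with DESeq2 on the whole table, and ranged from -1.01 to -0.64. NADSYN1 passed without a count filter at 0.61 and ranged from 0.38 to 0.88, and SIRT6 passed at 0.78 and ranged from 0.39 to 1.23.

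The replicate numbers were not taken to pair the libraries, since the labels do not tie a number to a batch, and with 2 pairs the correlation of same-numbered deviations was 0.252. With the replicate block, edgeR called 2208 genes, 4 members and 4 genes of the wider lists, with values of -0.85 for NAMPT, -0.81 for SIRT1, 0.63 for NADSYN1 and 0.80 for SIRT6. With the replicate block and the GC and length offsets it called 867 genes, 0 members and 2 genes of the wider lists.

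Members with an mH2A1.1 peak at the TSS numbered 5, 6 with any protein-coding start and 4 with peaks of at least 6000 bp. Those with a common peak numbered 3, and 2 under either stricter overlap. Those with an mH2A1 peak numbered 2, 3 within 1000 bp and 0 with peaks of at least 6000 bp. Of the 28 RPKM alternatives, 15 moved by more than the SD, through the transcript length or the plain totals. The depth of KD replicate 2 limits NMNAT3, and single ChIP-seq libraries give peaks no replicate check.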
